A study of Mus musculus with 5 samples.

Results

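The enteroendocrine cells described here were picked by their transcripts from 5 single-cell RNA libraries of mouse intestine. A cell barcode was a member if it had at least 300 detected genes, at most 20% of its unique molecular identifiers (UMIs, each counting 1 captured mRNA molecule) from mitochondrial genes, at least 3 UMIs of Epcam, Krt8 and Krt18 together, at least 5 UMIs of Chga and Chgb together and at most 1 UMI of Ptprc. This rule found 141 members among 16535 deposited barcodes, 12255 of which passed the gene and mitochondrial limits and 5074 of which were epithelial by the same keratin, Epcam and Ptprc limits. Duodenum gave 26 members, jejunum 6, ileum 42, colon 48 and rectum 19. The study profiled cells along the gut with 1 library for each of these segments, from suspensions sorted for cells that kept out propidium iodide, a stain of dead cells. Every library is labelled as a mixture of epithelial, mesenchymal and immune cells, and no treatment separates them. Strain, age, sex and the number of animals are not given in the sources used here, so a difference between segments cannot be told apart from a difference between libraries or animals. Members were divided by Tph1 into 81 with at least 1 UMI of it and 60 without, and because Chga and Chgb chose the members, their levels are given only as a description.

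Enteroendocrine cells are scattered hormone-secreting cells of the gut epithelium. They arise from crypt progenitors under the factor Neurog3 and store peptides and amines in dense core granules packed with chromogranins. Enterochromaffin cells, the most abundant kind, make serotonin from tryptophan through tryptophan hydroxylase 1, encoded by Tph1. Other kinds make ghrelin, cholecystokinin, secretin, GIP, neurotensin, somatostatin or, further along the gut, the proglucagon peptides with PYY and INSL5.

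The results below turn on the division by Tph1, on Tac1 and on Gcg. Tac1 had the largest fold change toward members with Tph1 among the genes called in 3 libraries. Gcg was lower in members with Tph1 in every library, in duodenum and jejunum through 1 cell each. The 250 bases before the annotated start of Tph1, Tac1 and Gcg are shown for this reason. They come from the RefSeq promoter table of build GRCm38.p6 (the assembly behind mm10), in which all 3 genes were found. Tph1 spans chr7:46644641-46672537, Tac1 chr6:7555061-7562978 and Gcg chr2:62474530-62483653 in that annotation. The windows are chr7:46672538-46672787 on the minus strand for Tph1, chr6:7554811-7555060 on the plus strand for Tac1 and chr2:62483654-62483903 on the minus strand for Gcg. Each is written 5′ to 3′ on the gene's strand, and capitals mark every match to CANNTG (the E-box bound by bHLH factors such as NEUROD1), TAATTA (a homeodomain core), TGACGT (part of the cyclic AMP response element) or TATAAA, on either strand.
Tph1: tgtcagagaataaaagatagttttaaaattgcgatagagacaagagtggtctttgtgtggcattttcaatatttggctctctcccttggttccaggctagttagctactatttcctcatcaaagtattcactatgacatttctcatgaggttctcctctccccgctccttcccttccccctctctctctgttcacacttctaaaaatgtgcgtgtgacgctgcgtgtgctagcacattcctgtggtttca
Tac1: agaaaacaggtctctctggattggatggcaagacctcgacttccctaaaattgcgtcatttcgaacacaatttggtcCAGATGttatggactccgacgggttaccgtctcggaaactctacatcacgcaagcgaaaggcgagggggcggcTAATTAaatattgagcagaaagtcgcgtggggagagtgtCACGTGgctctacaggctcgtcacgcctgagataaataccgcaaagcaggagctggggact
Gcg: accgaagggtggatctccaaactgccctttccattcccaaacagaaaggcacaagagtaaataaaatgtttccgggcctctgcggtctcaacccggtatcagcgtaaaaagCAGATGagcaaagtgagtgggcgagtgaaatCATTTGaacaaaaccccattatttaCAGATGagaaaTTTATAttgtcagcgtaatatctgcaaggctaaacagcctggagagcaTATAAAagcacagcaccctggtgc
The Tph1 window held none of these motifs. The Tac1 window held CANNTG at 2 places, starting 173 and 61 bases before the start, and TAATTA at 1, starting 100 bases before it. The Gcg window held CANNTG at 3 places and TATAAA at 2, of which 1 started 24 bases before the start, and none of its marks overlap. Over all 32851 windows of the same length, 66.2% held CANNTG, 4.84% TAATTA, 6.47% TGACGT and 12.4% TATAAA. The matches describe letters only.

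Most members carried the wider endocrine programme, but 25 of the 141 had no UMI of its factors, and most of these go against the label. The check used 14 transcription factors of endocrine cells (among them Neurog3, Neurod1, Insm1, Nkx2-2, Pax4, Pax6, Isl1, Lmx1a, Fev and Rfx6) and 8 granule genes, none of which chose the members. The 81 members with Tph1 had UMIs of 1 to 12 of these factors, with a median of 6. Among the 60 members without Tph1, 35 had 3 to 12 factors, with a median of 8, and the other 25 had none. Of those 25 cells, 23 were ileal and 2 jejunal, they had 5 to 19 UMIs of Chga and Chgb, and their median was 0 of the 8 granule genes, against 6 in members with Tph1 and 7 in members without Tph1 that had a factor. Their Fabp2, the fatty acid-binding protein of absorptive enterocytes, stood at 20724 CPM (counts per 1000000 of the summed UMIs), against 439 CPM in members with Tph1 and 1221 CPM in members without Tph1 that had a factor. An exception among the 25 was 1 shallow ileal cell of 1884 UMIs. It had 160 UMIs of the neurotensin gene Nts, 4 of the 8 granule genes and no Fabp2. Chga and Chgb together stood at 38118, 62465, 46499, 16086 and 21474 CPM in members with Tph1 from duodenum to rectum, against 2683, 702, 1420, 396 and 1334 CPM in members without, and at 205 CPM over the 25 cells. These 25 cells are called members without a factor below. Levels in ileal and jejunal members without Tph1 include them except where a factor is said to be required.

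**Figure D1:**
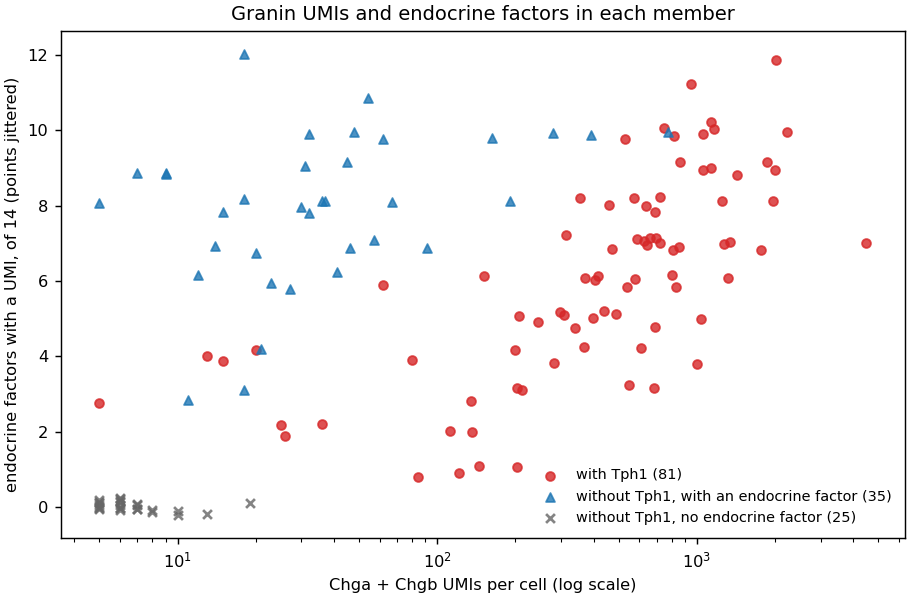
Each point is 1 member, placed by its UMIs of Chga and Chgb (log scale) and by how many of 14 endocrine transcription factors had a UMI (points jittered vertically). The 81 members with Tph1 reach the highest chromogranin counts, the 35 without Tph1 and with a factor lie mostly below 100 UMIs at similar factor numbers, and the 25 without a factor lie between 5 and 19 UMIs.

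Near the limit that chose the members the cells changed in kind. With 20 UMIs of Chga and Chgb or more, all 102 members had a factor and 78 had Tph1. Just inside the limit, with 5 or 6 UMIs, 2 of 17 members had a factor and 13 were ileal. Among epithelial barcodes just outside, with 3 or 4 UMIs, 6 of 88 had a factor and 55 were ileal. For comparison, 453 of the 4283 epithelial barcodes without any Chga or Chgb had at least 1 factor UMI.

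The total depth was 41953568 to 65546664 UMIs per library over 2884 to 4355 barcodes. Members had a median of 22780 UMIs and 4924 genes, with 15159 UMIs in members with Tph1 and 31660 in members without it. Markers of other lineages differed in level. The largest sums were those of the secretory and goblet list and of the absorptive list. The 10 secretory and goblet markers, which include Reg4, summed to 5283 to 17033 CPM in members. The 12 absorptive markers summed to 567 to 27588 CPM, highest in ileum, where the members without a factor had 40774 CPM. The 10 crypt stem and dividing markers summed to 403 to 1702 CPM, the 10 tuft cell markers to 128 to 474 CPM and the 8 Paneth markers to 3.95 to 288 CPM. The 6 T and NK cell markers summed to at most 1.2 CPM in any library's members, the 7 stromal markers to at most 16.0 CPM and the 6 myeloid markers to 21.7 to 46.0 CPM. The 7 B and plasma cell markers summed to 294 to 1132 CPM, highest in colon, and the 7 enteric neuron and glia markers, some of which endocrine cells also express, to at most 225 CPM, in rectum. Of 30 barcodes that occurred in more than 1 library, 1 was a member's. Among 36 members with over 40000 UMIs, 17 were colonic. Scrublet, a doublet caller, found only 27 of 12255 barcodes by its own threshold, so it had not worked in that mode, and the 250 highest scores, which held 7 members, were left out as an alternative.

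Members made up 2.32% of epithelial barcodes in duodenum (95% exact binomial interval 1.52 to 3.39%), 0.738% in jejunum, 3.68% in ileum, 4.21% in colon and 2.21% in rectum. With at least 1 endocrine factor required, the ileal share was 1.67%, and colon then had the highest share with an interval (3.12 to 5.54%) that did not reach those of jejunum and ileum. Intervals cover counting error only. The sort, tissue dissociation and the mitochondrial limit can set such shares, and at a limit of 10% mitochondrial UMIs the duodenal share was 6.32% and the jejunal share 2.76%.

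Tph1 was found in 15 of 26 duodenal members (57.7%, interval 36.9 to 76.6%), 2 of 6 jejunal, 10 of 42 ileal (23.8%, 12.1 to 39.5%), 39 of 48 colonic (81.3%, 67.4 to 91.1%) and 15 of 19 rectal members (78.9%, 54.4 to 93.9%). Counting only members with a factor, 10 of 19 ileal members had Tph1 (52.6%, 28.9 to 75.6%). All 81 members with Tph1 had a factor, so this requirement removed only members without Tph1 and could not lower a share. The intervals of duodenum, ileum, colon and rectum then all overlapped, with colon and rectum the highest. Thinning each cell to 2000 UMIs gave 52.2%, 33.3%, 24.4%, 68.9% and 68.4% from duodenum to rectum, leaving out 7 cells that were too shallow, 3 of them duodenal, 1 ileal and 3 colonic. The share of cells with a Tph1 UMI was 0.399% in 2755 immune barcodes, at median depths of 3330 to 4223 UMIs, and 0.700% in the 4283 other epithelial barcodes, at median depths of 15636 to 37351 UMIs. Members with Tph1 had a median of 38 of its UMIs and a maximum of 229, and 4 of the 81 had only 1 or 2.

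**Figure D2:**
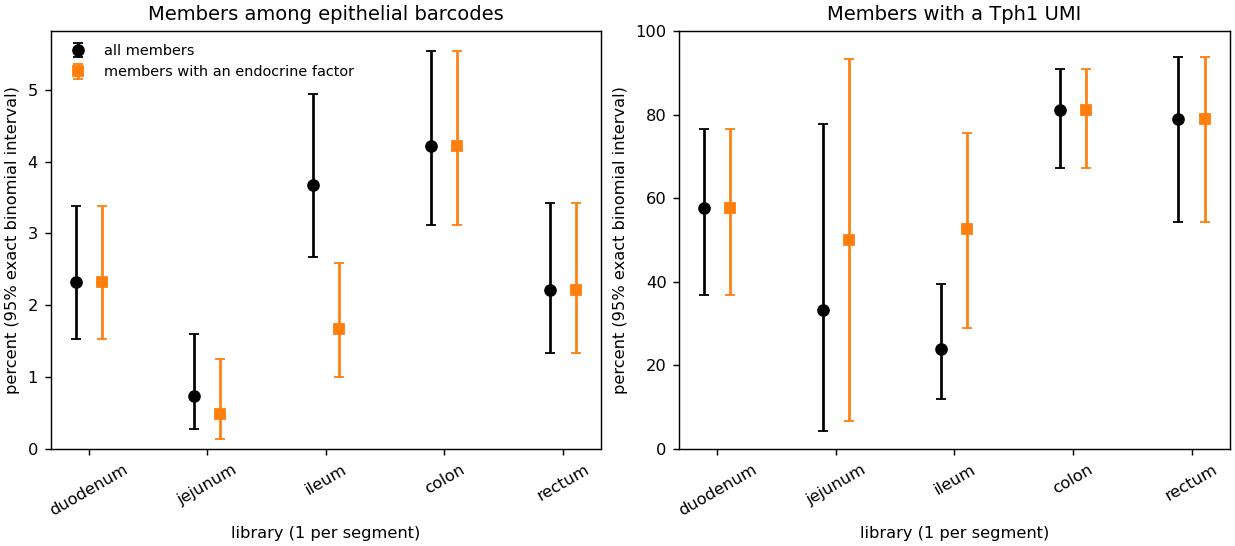
Left, members as a percentage of epithelial barcodes, and right, members with a Tph1 UMI as a percentage of members, in the library of each segment; bars are 95% exact binomial intervals. Circles count all members and squares only those with an endocrine factor, which puts ileum at 1.67% instead of 3.68% on the left and at 52.6% instead of 23.8% on the right. Requiring a factor removed only members without Tph1.

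Set against the 4283 other epithelial barcodes, members were marked by the machinery of regulated secretion. UMIs were summed per library and fitted with library as a term, and 518 of 12143 genes (4.27%) were higher and 89 (0.733%) lower in members at an adjusted p under 0.05 in edgeR's quasi-likelihood test with Benjamini-Hochberg adjustment. This contrast follows the line along which Chga and Chgb drew the members, so its counts describe what came with them. Of the 28 granule and prohormone genes tested, 26 were higher, with a median log2 fold change of 6.69, against -0.10 over all genes tested. Ptprn, a membrane protein of dense core granules, stood at 59.0, 98.7, 38.3, 53.9 and 122 CPM in members of duodenum, jejunum, ileum, colon and rectum, against 0.0577 to 0.209 CPM in other epithelial cells. All 5 libraries of members lay above all 5 of the other epithelium, and the log2 fold change was 8.77 (SE 0.27, adjusted p = 2.95e-06, edgeR). Pcsk1n, which encodes an inhibitor of prohormone convertase, stood at 59.2 to 1624 CPM in members and at most 0.209 CPM in other cells (log2 fold change 11.66, SE 0.45, adjusted p = 3.16e-06, edgeR). Its member levels were highest in rectum and next in colon.

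Of 24 endocrine transcription factors tested, 19 were higher in members. Insm1, a zinc finger factor of endocrine differentiation, had 313, 204, 163, 113 and 166 CPM in members along the gut and 0.376 to 1.21 CPM in other epithelial cells (log2 fold change 7.64, SE 0.27, adjusted p = 3.05e-06, edgeR). Sox4, which is also active in other progenitors, did not pass (log2 fold change 1.68, adjusted p = 0.0585, edgeR). All 6 hormone genes tested, of 18 listed, were higher, as were 12 of 14 tested genes for ion channels of excitable cells, of 20 listed. Among the latter, the sodium channel gene Scn3a had 68.1 to 361 CPM in members and at most 0.0910 CPM in other cells. Of 11 nutrient and chemical receptors tested, of 28 in the matrix, 6 were higher. They included Sstr5, a somatostatin receptor gene, with 7.69 to 19.7 CPM against at most 0.0606 CPM. Genes almost silent in other epithelial cells passed the filter on low counts only through their level in members, so these counts of calls are a description. Slc38a11, a member of the SLC38 amino acid transporter family, had 240 UMIs in members and none in the other epithelial barcodes of any library, which makes it at least 2423-fold higher against a floor of 3 counts over that group.

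On the lower side stood Paneth and lymphoid genes. Lower in members were 6 of 7 Paneth markers tested, among them the lysozyme gene Lyz1 with 0 to 22.5 CPM against 0.0606 to 4260 CPM in other epithelial cells, and 4 of 6 B and plasma cell markers, such as Jchain. Summed over the B and plasma cell list, members had 294 to 1132 CPM and the other epithelial barcodes 4614 to 38177 CPM, and the part of these transcripts in the lower genes was not tested. Of 11 absorptive markers, 1 was lower and none higher. With an endocrine factor required, jejunum had only 4 members, under the minimum of 5 cells a side, and dropped out. In duodenum, ileum, colon and rectum, 875 of 12482 genes (7.01%) were then higher and 737 (5.9%) lower. The factors that chose these members were not left out of the test, so their calls are a description only.

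The next comparison asked what members with Tph1 shared beyond Tph1. Only duodenum, ileum and colon had 5 cells or more on both sides, and with these 3 libraries 2 of 5702 genes (0.0351%) were higher in members with Tph1 and 0 were lower, while 368 genes passed 0.05 before adjustment. By DESeq2, 14 were higher and 17 lower. Both genes called by edgeR are known from enterochromaffin cells. Tac1 encodes the precursor of substance P and neurokinin A, and Slc18a1 the vesicular monoamine transporter that loads serotonin into granules. Tac1 had 4091, 4666 and 440 CPM in duodenal, ileal and colonic members with Tph1, against 0, 3.06 and 0 CPM in those without (log2 fold change 10.79, SE 0.68, adjusted p = 0.0121, edgeR). Slc18a1 had 245, 522 and 156 CPM in members with Tph1 against 4.80, 12.2 and 5.58 CPM in members without (log2 fold change 5.09, SE 0.38, adjusted p = 0.0172, edgeR). The groups did not overlap for either gene. Tac1 was almost silent without Tph1 and passed the filter on low counts only through members with Tph1, so its call is a description. Left without the duodenal library, neither call held (adjusted p = 0.120 for Tac1 and 0.186 for Slc18a1, edgeR), and likewise without the library term (0.154 for both). Depth differed between the sides, as given above, and pairing cells on total UMIs gave 7 higher and 7 lower genes, with both calls kept.

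All 5 libraries could enter when 2 cells a side sufficed, a choice made after seeing the data, and then 9 of 5037 genes (0.179%) were higher and 5 (0.0993%) lower. Both genes above stayed among them. In this fit Slc18a1 also covered jejunum (533 CPM against 8.88) and rectum (97.1 CPM against 0). The factor gene Lmx1a, a LIM homeobox regulator of serotonin cells, had 236, 279, 383, 57.1 and 91.7 CPM in members with Tph1 along the gut and no UMI in any of the 60 members without, which is at least 83.8-fold higher with a floor of 3 counts over the group (adjusted p = 0.00643, edgeR). Slc38a11 reached 192, 228, 167, 48.1 and 159 CPM in members with Tph1, against 1 cell with any UMI among the members without, a colonic one. Within the members this transporter gene therefore lay almost wholly on the Tph1 side. Genes of the RAB3 family of vesicle GTPases were among the others, namely Rab3c (59.4 to 950 CPM against 0 to 16.8) and Rab3b (29.3 to 127 CPM against 0 to 7.37). Krt87, Gstt1 and Atf6 completed the list, with log2 fold changes of 5.95, 4.06 and 3.58. Genes almost silent without Tph1, such as Lmx1a and Slc38a11, passed the filter on low counts only through members with Tph1. Their calls, and the counts that include them, are a description.

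**Figure D3:**
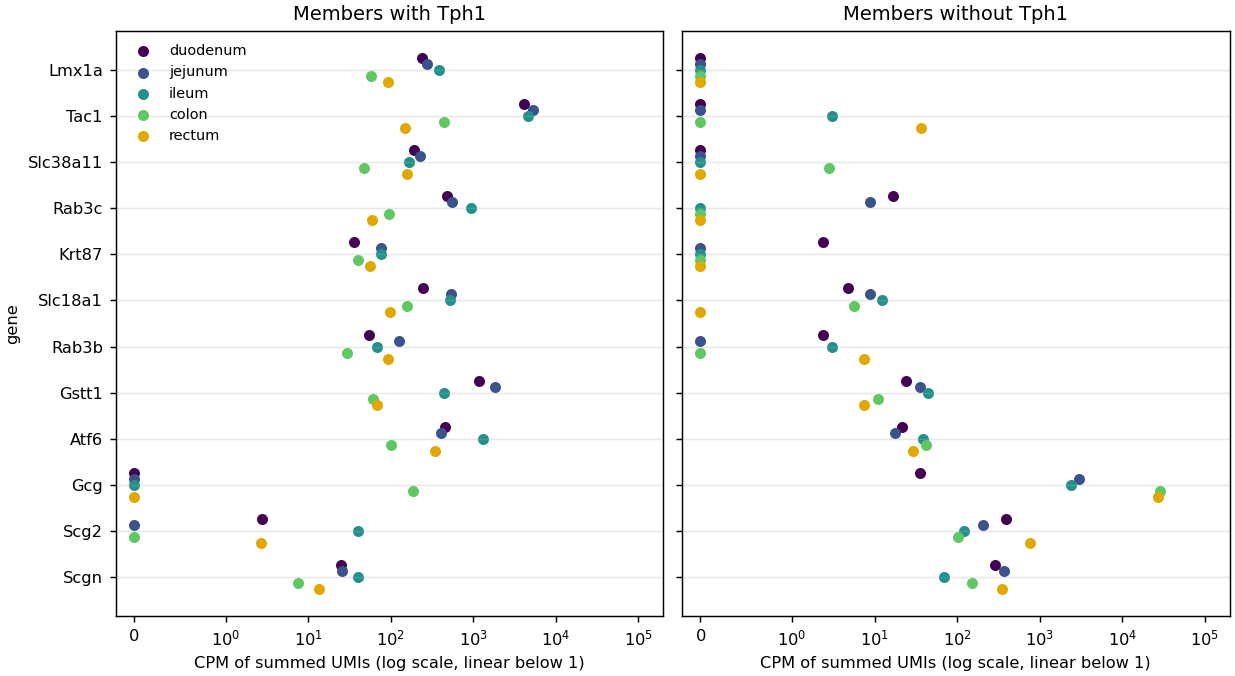
CPM of summed UMIs (log scale, linear below 1) for 12 of the 14 genes past the threshold in the fit of 5 libraries, with 1 point per segment, in members with Tph1 on the left and without on the right. The upper 9 genes, Lmx1a to Atf6, are higher with Tph1 and the lower 3, Gcg, Scg2 and Scgn, are higher without it; Lmx1a has no UMI on the right.

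Among the genes lower in members with Tph1 were a peptide hormone gene and genes of granule and calcium proteins. Gcg, the proglucagon gene, had 0, 0, 0, 184 and 0 CPM in members with Tph1, against 36.0, 2976, 2425, 28387 and 27417 CPM in members without (log2 fold change -9.91, SE 1.17, adjusted p = 0.00643, edgeR). The colonic value on the Tph1 side came from 4 of 39 cells, with at most 215 UMIs in 1 of them. Without Tph1, the duodenal value came from 1 of 11 cells, with 15 UMIs, and the jejunal value from 1 of 4, with 335 UMIs. Scg2, which encodes the granule protein secretogranin II, had 0 to 40.5 CPM against 103 to 767 CPM, and Scgn, the calcium sensor secretagogin, 7.51 to 40.5 CPM against 69.3 to 373 CPM. The ranges of Scg2 and Scgn did not overlap between the sides, while Gcg in colon with Tph1 exceeded Gcg in duodenum without it.

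Dropping the members without a factor in the fit of 5 libraries gave 21 of 4440 genes (0.473%) higher and 19 (0.428%) lower. Of the 14 genes called over all members, 12 were called again in the same direction, and the other 2, one of them Rab3b, did not pass the filter on low counts. Of these 40 calls, 4 (Lmx1a, Isl1 and Pax6 among them) are factors that chose the cells and are a description only. Among the others, the transcription factor gene Etv1 was lower in members with Tph1 (log2 fold change -4.47, SE 0.51, adjusted p = 0.000742, edgeR), as was the retinol carrier gene Rbp4 (-3.78, SE 0.56, adjusted p = 0.00554, edgeR). Cck also passed on the lower side (-6.63, SE 1.24, adjusted p = 0.0278, edgeR), but in jejunum it went the other way, with 228 CPM in members with Tph1 against 142 CPM in those without. Dnaja4, a heat shock cochaperone gene, and Arc, an activity-regulated gene, were higher (log2 fold changes 2.21 and 2.28).

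Genes of the serotonin handling list, which includes the factor genes Lmx1a and Fev, were not all raised. Over all members in 5 libraries, 2 of its 9 genes tested were higher, Slc18a1 and Lmx1a, against 0.179% of all 5037 genes tested. The median log2 fold change of the 9 was 1.37, against -0.04 over all genes tested. With an endocrine factor required, the same 2 of 8 passed, and the median was 0.88, against -0.01 over all genes tested. Lmx1a and Fev are among the factors that chose those cells, so their part in that count and median is a description only. Ddc, which turns the hydroxylated product into serotonin, had 871, 1167, 1518, 272 and 728 CPM in members with Tph1 and 370, 329, 243, 167 and 302 CPM in members without, higher in all 5 libraries but not past the threshold (log2 fold change 1.37, adjusted p = 0.181, edgeR). With a factor required its jejunal and ileal levels without Tph1 were 765 and 624 CPM (log2 fold change 0.96, adjusted p = 0.0513, edgeR). Fev, another serotonin cell factor, had 33.8 to 659 CPM with Tph1 against 23.5 to 133 CPM without (adjusted p = 0.549, edgeR). The second vesicular transporter, Slc18a2, was too sparse to be tested. It had 159, 152, 135, 7.51 and 0 CPM in members with Tph1 and at most 1.02 CPM in members without. Slc6a4, the serotonin reuptake transporter, was found in 6 of 81 members with Tph1 and 29 of 60 without, 22 of them ileal, and 21 of those 29 were members without a factor.

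Most endocrine factors did not differ past the threshold. Of 20 endocrine factors tested over all members in 5 libraries, 1 was higher (Lmx1a) and 1 lower, with a median log2 fold change of 0.45. Over all 5037 genes tested, 0.179% were higher and 0.0993% lower, so calls were more frequent in this list. With a factor required, 1 of 21 was higher and 4 lower, with a median of -0.09, against 0.473% and 0.428% of all 4440 genes tested. Of these 5, 4 are among the factors that chose those cells. Neurod1 had 536, 761, 509, 185 and 264 CPM in members with Tph1 and 382, 249, 117, 218 and 133 CPM in members without (adjusted p = 0.549, edgeR). With a factor required, Neurod1 without Tph1 stood at 793 CPM in jejunum and 624 CPM in ileum, above the levels with Tph1. Neurod1 is among the factors that chose those cells, and the requirement removed only members without Tph1, so this is a description only. Isl1, a LIM factor of peptide cells, had 60.5, 0, 27.0, 0 and 0 CPM against 490, 489, 117, 140 and 133 CPM, a gap in every library that narrowly missed the threshold (adjusted p = 0.0570, edgeR). Neurog3, the transient progenitor factor, was found in 7 of 81 members with Tph1 and 10 of 60 without, and 10 of these 17 cells were duodenal. Of 27 granule genes tested over all members, 2 were higher and 2 lower, again above the shares over all genes.

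The leading peptide hormone differed between members with and without Tph1. Each member was assigned the hormone with the most UMIs if it had at least 10. Among the 81 members with Tph1 this was Tac1 in 26, Sct in 26, Gcg in 2, Sst in 1 and none in 26. Among the 60 without, it was Gcg in 7, Ghrl in 6, Pyy in 4, Sct in 4, Gip in 3, Nts in 3, Cck in 2, Sst in 1 and none in 30, and 24 of those 30 had no endocrine factor. Hormone genes therefore named 29 of the 35 members without Tph1 that had a factor.

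Tac1 was lower in the large than in the small intestinal libraries. In members with Tph1 it had medians of 59, 105, 72.5, 2 and 0 UMIs per cell from duodenum to rectum, and the highest cells had 358, 187, 289, 121 and 22. It was found in 14 of 15, 2 of 2, 10 of 10, 26 of 39 and 6 of 15 of these cells. Sct, the secretin gene, was instead spread over both sides. It had 2292, 4058, 1072, 847 and 424 CPM in members with Tph1 and 1453, 719, 2548, 879 and 892 CPM in members without (log2 fold change -0.07, adjusted p = 0.988, edgeR). With a factor required its ileal level without Tph1 was 13444 CPM (log2 fold change -0.60, adjusted p = 0.871, edgeR). In all, 18 members had at least 10 UMIs of both Sct and Tac1.

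The members without Tph1 carried different hormones along the gut. Ghrl, the ghrelin gene, led 4 of 11 duodenal cells with 507 to 6784 UMIs and 2 of 4 jejunal cells, and reached 29659, 7159, 98.9, 0 and 14.7 CPM from duodenum to rectum, with 22830 CPM in jejunum and 527 CPM in ileum where a factor was required. Cck led 2 duodenal cells with 894 and 3030 UMIs. Gip was an ileal hormone in these libraries, leading 3 cells with 793 to 1438 UMIs at 3723 CPM over all 32 ileal cells and 19819 CPM over the 9 of them with a factor, against 4.80 CPM in duodenum and 0 in the others. Of these 3 cells, 2 also had 178 and 104 UMIs of the goblet cell gene Muc2. Over the cells with a factor Gcg had 12901 CPM in ileum. Gcg led 5 of 9 colonic cells with 1064 to 2714 UMIs. Nts, the neurotensin gene, had 1239 CPM in ileum, or 5723 CPM over the 9 cells with a factor, and 9858 CPM in colon, and no UMI in duodenum, jejunum or rectum. All 4 rectal cells were led by Pyy, with 3004 to 4760 UMIs each, and all 4 also had Insl5 (532 to 2607 UMIs) and Gcg (312 to 1754 UMIs). These levels rest on 4 to 32 cells a library.

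**Figure D4:**
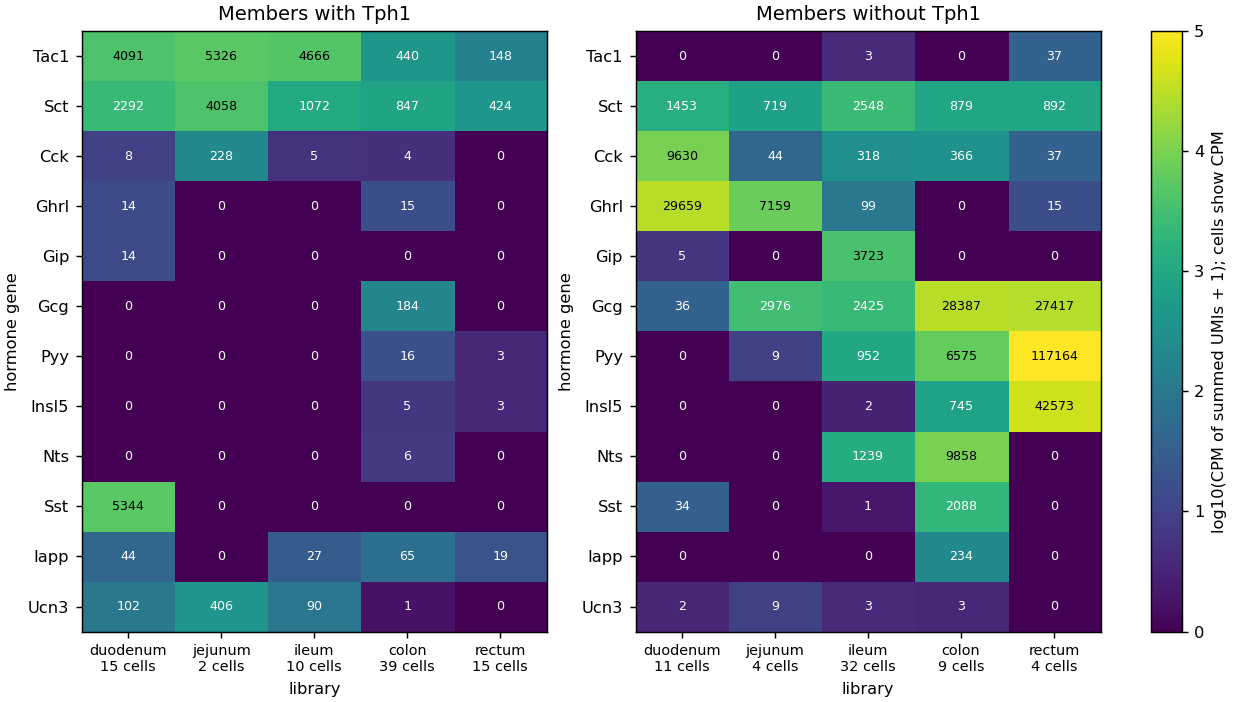
CPM of summed UMIs for 12 hormone genes in the library of each segment, in members with Tph1 on the left and without on the right; colour is log10 of CPM + 1 and the printed figure is the CPM. Tac1 fills the left panel from 5326 CPM in jejunum to 148 CPM in rectum, and Ghrl, Gip, Nts, Gcg and Pyy occupy different segments on the right, where jejunum and ileum include the members without a factor.

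Several hormones shared a cell. With at least 10 UMIs of each, Gcg and Pyy were found together in 12 members, out of 19 with Gcg and 14 with Pyy. Insl5 occurred in 10 members, and all 10 had both Gcg and Pyy. The 6 colonic members with Nts all also had Gcg, Pyy and Insl5. Cck and Gcg were together in 9 members, out of 12 with Cck. Gcg and Tac1, by contrast, met that level in the same cell only once, in colon, out of 19 members with Gcg and 35 with Tac1. Sst led 1 duodenal member with Tph1, with 1945 UMIs, and 1 colonic member without it, with 748 UMIs.

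Whether the Tph1 contrast itself differed between large and small intestine was tested as an interaction. In the 3 libraries 1 gene passed, Sst, lower on the large intestinal side (0.0175% of 5702 genes), and it rests on the 2 cells just named. Colon was the only large intestinal library in that fit, so that side had no replicate. With 5 libraries and a factor required, 1 of 4440 genes (0.0225%) had a higher contrast in large intestine, the neurofilament gene Nefm, and 4 (0.0901%) a lower one, Resp18, Reg4, Cyp4b1 and Pcsk1. Nefm had 78.9 and 159 CPM in colonic and rectal members with Tph1 against 53.0 and 73.7 CPM in those without, while in duodenum, jejunum and ileum it had 8.24, 25.4 and 9.01 CPM against 211, 198 and 32.6 CPM.

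Small and large intestine were set side by side by a rule of size, since 3 libraries against 2 cannot give an exact two-sided permutation p below 0.2. A gene counted where the lowest library of one side was at least 4-fold above the highest of the other, with at least 50 UMIs in members. Over all members 70 of 8488 genes (0.825%) were higher in small and 23 (0.271%) in large intestine. Among the widest gaps toward small intestine were Rbp2, a retinol-binding protein gene (1261, 1026 and 567 CPM in duodenum, jejunum and ileum against 5.92 and 3.95 CPM in colon and rectum), Tm4sf5 and the crypt gene Olfm4. Toward large intestine stood Insl5 and the goblet cell gene Retnlb, which encodes a resistin-like protein. Members of different kinds were pooled in these sums, including the ileal members without a factor, and requiring a factor gave 51 and 12 genes.

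The cells with Tph1 could be compared alone along the gut, a comparison added after seeing the data. Of 6427 genes, 42 (0.653%) were higher in small and 8 (0.124%) in large intestine. Trpa1, an ion channel gene for irritants, had 572, 1953 and 225 CPM in duodenum, jejunum and ileum and no UMI in the 54 colonic and rectal cells, which is at least 304-fold higher with a floor of 3 counts over the large intestine. It was found in 13 of 15, 2 of 2 and 5 of 10 small intestinal cells. Afp, the alpha-fetoprotein gene, had 3234, 21862 and 509 CPM in small intestine, against 5.26 CPM in colon and 0 in rectum. Its level rested on a few cells, since 12 of the 27 small intestinal cells had any UMI and 2 of them held 1070 and 862. Tpbg, which encodes the trophoblast glycoprotein, had 695, 1217 and 1279 CPM against 12.8 and 24.3 CPM. The homeobox gene Lhx1 had 140, 178 and 158 CPM against 0 in both, and Slc18a2, given above, also belonged here.

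**Figure D5:**
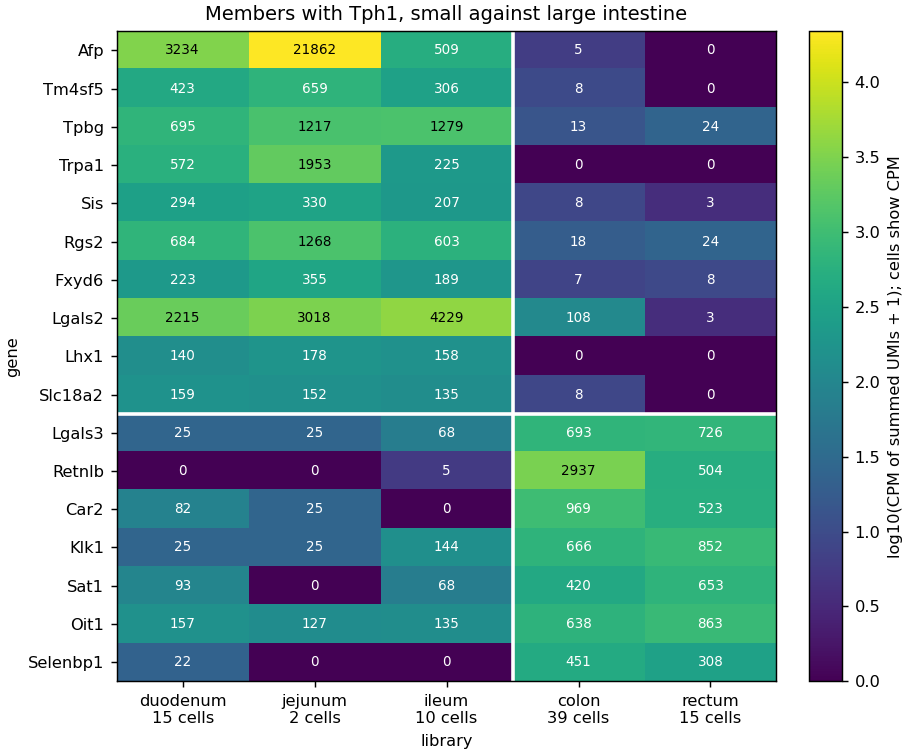
CPM of summed UMIs in members with Tph1 of each segment for the genes with the widest gaps, with the 10 higher in small intestine above the line and the 7 higher in large intestine under it; colour is log10 of CPM + 1 and the printed figure is the CPM. Trpa1 and Lhx1 have no UMI in colon and rectum, while Lgals3, Klk1 and Car2 are at or above 523 CPM in both.

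Toward large intestine, the summed UMIs of members with Tph1 held genes that goblet cells and colonocytes also express. Retnlb had 0, 0 and 4.50 CPM in small intestine, against 2937 and 504 CPM in colon and rectum, and Car2, a carbonic anhydrase of colonocytes, 82.4, 25.4 and 0 CPM against 969 and 523 CPM. Muc2, the gel-forming mucin of goblet cells, reached 100 UMIs in 10 of 39 colonic members with Tph1 and 2 of 9 without, and Car1, a colonocyte carbonic anhydrase, in 10 of 39 and 5 of 9. These were largely the same deep barcodes. All 10 Muc2 cells with Tph1 had at least 36716 UMIs in total, against a median of 19750, and most also had 100 Car1 UMIs. Over the 39 cells the median was 1 UMI of Muc2 and 12 of Car1. Summed over the B and plasma cell list, members with Tph1 had 316, 406 and 347 CPM in duodenum, jejunum and ileum, against 1352 and 839 CPM in colon and rectum. That list includes Xbp1, which did not pass the threshold between members and other epithelium (log2 fold change -0.40, adjusted p = 0.28, edgeR). The part of these other transcripts, and of the 13 of 39 colonic cells above 40000 UMIs, in the colonic levels was not tested.

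The 2 large intestinal segments also differed from each other. Piezo2, a mechanically gated channel gene, had 143 UMIs (386 CPM) in the 15 rectal members with Tph1 and was found in all 15, with 2 to 20 UMIs each. Colon had 2 UMIs in 39 cells and small intestine none, which puts rectum at least 80.4-fold above the small intestine. The rectal members without Tph1 had no Piezo2. Hoxb13, a posterior HOX gene, was found in all 19 rectal members (653 CPM with Tph1 and 435 CPM without) and in no member of another segment. The odorant receptor gene Olfr558 was found in 24 of 39 colonic, 5 of 10 ileal, 1 of 2 jejunal and 2 of 15 duodenal members with Tph1, and in none of 15 rectal ones and none of the 60 members without Tph1. Olfr78, a receptor gene for short-chain fatty acids, was found in 20 of 39 colonic and 2 of 15 rectal members with Tph1, and on the other side in 3 of 4 rectal members. With 1 library each, these gaps between segments have no replicate.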

How the data were processed

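Per the labels' protocols, propidium iodide-negative cells were sorted and captured with the 10x Genomics system. The deposited matrices hold raw UMI counts for 32285 genes per barcode, without normalization. Per the file headers they were written by cellranger 7.2.0, while Cell Ranger 4.0.0, Seurat and mm10 stand in the submitters' processing notes. Each of the 5 libraries is 1 segment, with no replicate. Members and gene lists were chosen with earlier results of these data known.

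UMIs were summed per library and side. Contrasts used edgeR 4.0.16 (quasi-likelihood, TMM, filterByExpr, library as a term, Benjamini-Hochberg adjustment over all genes tested at 0.05), without Tph1 in its own contrast and without the genes of the rule, after a test on simulated data. DESeq2 1.42.0 was an alternative. Libraries act as replicates, so p-values measure only the spread between these libraries. Other epithelial cells had no Chga or Chgb UMI. Immune barcodes had at least 2 Ptprc UMIs and no Epcam, Krt8 or Krt18. Intervals are Clopper-Pearson and cover counting error only. CPM is scaled by total UMIs without gene length. Doublets were scored with Scrublet in scanpy 1.11.5, at 0.8% per 1000 barcodes. Named genes were the 15 largest fold changes per direction that went the same way in every library used, the 10 widest gaps between small and large intestine, and members of 20 lists, leaving out genes of mitochondria, antibodies and T cell receptors and gene models with no name. Gene positions and sequences come from RefSeq, build GRCm38.p6. The labels number no replicates. Alternatives covered the cell limits, normalization, filters, the block and leaving out each library. The spatial libraries were not analysed here. Some genes are not reported here.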

Additional observations from a re-analysis of the deposited data

Results flagged for a closer look

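The difference between large and small intestine in the contrast of members with Tph1 against members without was tested as an interaction (large minus small, log2). In the 3 libraries with 5 cells a side it passed for Sst alone, 1 of 5702 genes (0.0175%), at -20.02 (SE 2.16, adjusted p = 0.0214, edgeR). This value rests on 1 duodenal member with Tph1 that had 1945 UMIs and 1 colonic member without it that had 748. Colon was the only large intestinal library in that fit, so that side had no replicate.

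With 5 libraries and an endocrine factor required, a choice made after seeing the data, it passed for 5 of 4440 genes. The value was -3.24 for Resp18, -10.55 for Reg4, -5.64 for Cyp4b1, -3.85 for Pcsk1 and 4.45 for Nefm, each with an adjusted p of 0.0263 (edgeR). Reg4 had 6674, 53005 and 7228 CPM in duodenal, jejunal and ileal members with Tph1, against 0, 0 and 266 CPM in those without. In colon and rectum it had 2172 and 227 CPM in members with Tph1, against 9872 and 2108 CPM in those without, so that its direction was the opposite in each large intestinal library. Pcsk1, a prohormone convertase gene, had 808, 1319 and 1293 CPM against 274, 283 and 288 CPM in the small intestine and 73.6 and 24.3 CPM against 167 and 184 CPM in colon and rectum. Over all members in 5 libraries no gene passed, with 345 at an unadjusted p under 0.05.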

How the results depend on the processing

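Counts of genes in the Tph1 contrast are given as higher and then lower, against 2 and 0. They were 5 and 4 with at least 3 Tph1 UMIs, 7 and 7 paired on UMIs, 5 and 2 at 10% mitochondrial UMIs, 7 and 6 with 10 chromogranin UMIs, 2 and 1 without the highest Scrublet scores, 14 and 17 with DESeq2 and 172 and 234 without a filter on low counts. Choices made after seeing the data gave 9 and 5 with 2 cells a side, 13 and 18 with an endocrine factor, 21 and 19 with both and 12 and 3 at 40000 UMIs. Without the replicate block (library term) they were 0 and 0. Leaving out a library gave 0 and 0 (duodenum), 8 and 13 (ileum) and 25 and 10 (colon), so a range of 0 to 25 higher and 0 to 13 lower. The interaction called 1 gene, 0 with 2 cells a side and 5 with a factor as well.

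Against other epithelium, with 518 and 89, the counts were 904 and 798 at 10% mitochondrial UMIs and 867 and 248 with DESeq2. They were 729 and 244 without a filter and 452 and 29 without the replicate block. With a factor required, and so without jejunum, they were 875 and 737. Leaving out a library gave 333 to 658 higher and 40 to 588 lower, with 333 and 44 without duodenum, 45 lower without jejunum, 658 and 588 without ileum and 344 and 40 without rectum. Tac1 and Slc18a1 kept their direction in each alternative that tested them. In the contrast with other epithelium, 115 genes were followed, those named and those on a list that passed in the main fit. None changed direction, and 37 missed the threshold in at least 1 alternative. All these genes, like Tac1 and Slc18a1, were picked by the main fit and refitted on overlapping cells. Their kept direction is therefore a description only.

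Between small and large intestine, 70 and 23 genes became 199 and 95 at 2-fold, 45 and 23 at 200 UMIs, 36 and 17 at 10% mitochondrial UMIs, 74 and 10 with 10 chromogranin UMIs, 51 and 12 with a factor and 42 and 8 for members with Tph1 alone. The Tph1 share in ileum was 43.5% with 10 chromogranin UMIs and 52.6% with a factor. The share of members was 6.32% in duodenum, 2.76% in jejunum and 5.77% in colon at 10% mitochondrial UMIs, and in ileum 2.02% with 10 chromogranin UMIs and 1.67% with a factor. The causes were not tested. The few cells a side, 2 to 39, limit precision.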
